A study of Mus musculus with 8 samples.

Results

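The 42 genes described here carry out or control the cell cycle: the cyclins and their kinases, the inhibitors of those kinases, the RB, E2F and Myc regulators, and the proteins that license, copy and divide the genome. The regions that belong to them are the accessible regions overlapping the body of a member gene or the 10 kb on either side of it (mm10, GENCODE M21 gene models), after peaks of all libraries had been merged where they shared at least 1 base, and with a peak in at least 2 libraries. By this rule 209 of the 72711 consensus regions of the series belong to these genes, and no region fell to 2 members. The assay was ATAC-seq, which marks open DNA by the adapters that Tn5 transposase inserts there, in alveolar macrophages (AMs, the resident macrophages of the airspaces) sorted from the bronchoalveolar lavage of adult mice. The 4 KO libraries came from CD11cCre+ Rxrabfl/fl mice and the 4 WT libraries from CD11cCre- Rxrabfl/fl mice, so that all animals carried the floxed alleles of Rxra and Rxrb, the genes of the retinoid X receptors RXRα and RXRβ, and Cre separated the groups. Cre expression follows the CD11c promoter, which is active in AMs and also in dendritic cells. The series presents its libraries as individual biological replicates and the study counts as many per genotype as there are libraries, but the names 1_2 and 1_3 are not explained, and if these share an animal p-values measure partly technical spread.

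AMs can renew themselves by local proliferation, so that entry into and exit from the cycle are part of the normal life of the cell. The study holds that they are not fully self-sufficient, and cites fate mapping in which many adult AMs derive from bone marrow monocytes. In G1, D-type cyclins (Ccnd1, Ccnd2, Ccnd3) activate Cdk4 and Cdk6, which together with cyclin E and Cdk2 phosphorylate the retinoblastoma protein (Rb1) and release E2F factors onto the promoters of the replication genes. The MCM helicase is loaded at origins by Cdc6 and Cdt1 during licensing. Genes of the later stages are under the control of the MYB and FOXM1 factors and, separately, of the DREAM complex. CHR and CCAAT elements occur in many of their promoters. RXRs are nuclear receptors that bind, often as dimers with other receptors, to paired half-sites such as the DR1 element.

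The value compared was the number of summit tags, the read ends (each extended to 200 bp) that overlap the summit of a peak, which were worked back from the fold enrichment and p-value of each peak. Peak lists held 60363 to 65009 peaks in KO and 61240 to 72484 in WT. The background was 1.12 to 1.86 tags per 200 bp in KO and 1.42 to 2.26 in WT, with the longest list and the deepest background both in WT replicate 1_3. Scaled tags are tags divided by the median of their library and multiplied by the common median of 68.2, and replicates are given below in the order 1_2, 1_3, 2 and 3 for KO and 1_2, 1_3, 3 and 4 for WT. Among 16 consensus regions of the deleted gene Rxra, 1 had a peak in all 4 WT libraries and in no KO library, and neither of the 2 regions of Rxrb did so. Promoters of 8 of 10 AM markers had a peak in all 8 libraries, and Chil3 and Krt79 had none. Of 5 T cell and 4 B cell markers, 0 had a promoter peak in any library. Promoter peaks in all 8 libraries were found for S100a8 and Cxcr2 among 5 neutrophil markers, Epcam, Cdh1 and Scgb1a1 among 5 epithelial markers, and Ly6c2 and Cx3cr1 among 5 markers of monocytes and interstitial macrophages. Fcrls, also a marker in the last list, had a promoter peak in 4 WT and 0 KO libraries. Cdh1, listed here with epithelium, is named by the study as a core gene of AMs, so its peak does not tell these cells apart. The part of other cells in the results below was not tested, and in bulk material a change in the share of cells of a kind and a change in accessibility per cell cannot be told apart.

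The promoters of 5 members are shown for the elements through which many cell cycle genes are known to be regulated. Each line gives the 150 bases before the RefSeq transcription start (GRCm38.p6), 5′ to 3′ on the strand of the gene, with matches to the E2F patterns (TTTCCCGC, TTTGGCGC or TTTCGCGC), the CHR (TTTGAA) and the CCAAT box in capitals on either strand. Mcm3 (chr1:20820313-20820462, minus strand), Mcm6 (chr1:128359706-128359855, minus strand) and Mcm5 (chr8:75109359-75109508, plus strand) encode subunits of the replicative helicase, Cdk1 (chr10:69352913-69353062, minus strand) the mitotic kinase, and Mki67 (chr7:135716380-135716529, minus strand) the Ki-67 proliferation marker.
Mcm3: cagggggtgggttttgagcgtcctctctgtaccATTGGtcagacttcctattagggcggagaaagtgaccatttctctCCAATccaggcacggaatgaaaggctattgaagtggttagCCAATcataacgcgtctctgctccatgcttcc
Mcm6: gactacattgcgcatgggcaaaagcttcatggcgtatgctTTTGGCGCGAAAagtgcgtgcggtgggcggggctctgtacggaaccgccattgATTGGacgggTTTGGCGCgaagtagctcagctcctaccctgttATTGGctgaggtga
Mcm5: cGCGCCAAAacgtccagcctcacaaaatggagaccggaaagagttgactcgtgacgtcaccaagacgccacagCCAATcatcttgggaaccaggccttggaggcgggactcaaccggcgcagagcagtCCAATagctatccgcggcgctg
Cdk1: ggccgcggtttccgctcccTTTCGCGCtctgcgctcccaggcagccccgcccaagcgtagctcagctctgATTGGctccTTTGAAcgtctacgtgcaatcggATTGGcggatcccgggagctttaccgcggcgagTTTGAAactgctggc
Mki67: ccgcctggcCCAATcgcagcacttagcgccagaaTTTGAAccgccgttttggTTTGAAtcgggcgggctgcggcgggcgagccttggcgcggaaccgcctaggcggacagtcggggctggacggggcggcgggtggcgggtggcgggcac
In the bases shown, Mcm6 holds 3 E2F matches, of which a pair overlaps, whereas Mki67 holds 2 CHR matches, 1 CCAAT box and 0 E2F matches, and Cdk1 holds all 3 kinds.

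Promoter sequences were found for 33 of the 42 members, with 40 windows of 250 bases before to 50 bases after a start. An E2F pattern was present in 27.5% of these windows, beside 1.84% of the 32851 windows of all genes. Among windows that overlap a region listed in all 8 libraries, the share was 28.6% of 35 member windows and 3.89% of 12043 windows of all genes. The E2F pattern was found in 6 of 7 licensing genes with a window and in 0 of 6 genes of mitosis and proliferation, whereas the CHR was found in 1 of 7 and 4 of 6 of them. The CHR is a short and common pattern, present in 25.0% of member windows and 17.9% of all windows. In windows that overlap a region listed in all 8 libraries, its shares were 25.7% and 11.2%. CCAAT boxes were present in 62.5% of member windows and 37.4% of all windows, and GC boxes (GGGCGG) in 82.5% and 35.7%. Among windows that overlap a region listed in all 8 libraries, the GC box contrast was smaller, with 88.6% of member windows and 66.4% of windows of all genes. The CCAAT share of all genes changed little in such windows, at 38.7%. The DR1 pattern (a pair of AGGTCA half-sites in the same orientation with 1 base between them, up to 2 mismatches), the PU.1 pattern (GAGGAAGT) and the AP-1 pattern (TGACTCA or TGAGTCA) matched 0 of 40 member windows, beside 3.86%, 3.20% and 5.20% of all windows. Within 100 bp of the summit of the 123 distal member regions, DR1 was present in 5.69%, PU.1 in 8.94% and AP-1 in 9.76%, close to the 4.73%, 12.5% and 11.0% of all distal regions. These are matches of letters in a window and do not show binding.

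Accessible chromatin was found at almost every member promoter in both genotypes. A promoter is a region whose summit lies within 1 kb of an annotated transcription start site (TSS), and 40 of the 42 members had a region at an own promoter in all 8 libraries. Scaled tags at the strongest own promoter ranged from 24.2 at Tyms, the thymidylate synthase gene, to 681 at E2f3, with a median of 168. Taking the strongest region of each gene raises this median. Over all member promoter regions listed in all 8 libraries the median was 144, beside 114 over all such promoters of the series. Ccna2 (cyclin A2, 519 scaled tags), Mcm3 (375) and Pcna (314), the sliding clamp of DNA polymerase, followed E2f3. At the lower end stood Bub1 (49.3), Plk1 (63.6) and Aurkb (68.8), which encode kinases of the spindle and its checkpoint.

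**Figure D1:**
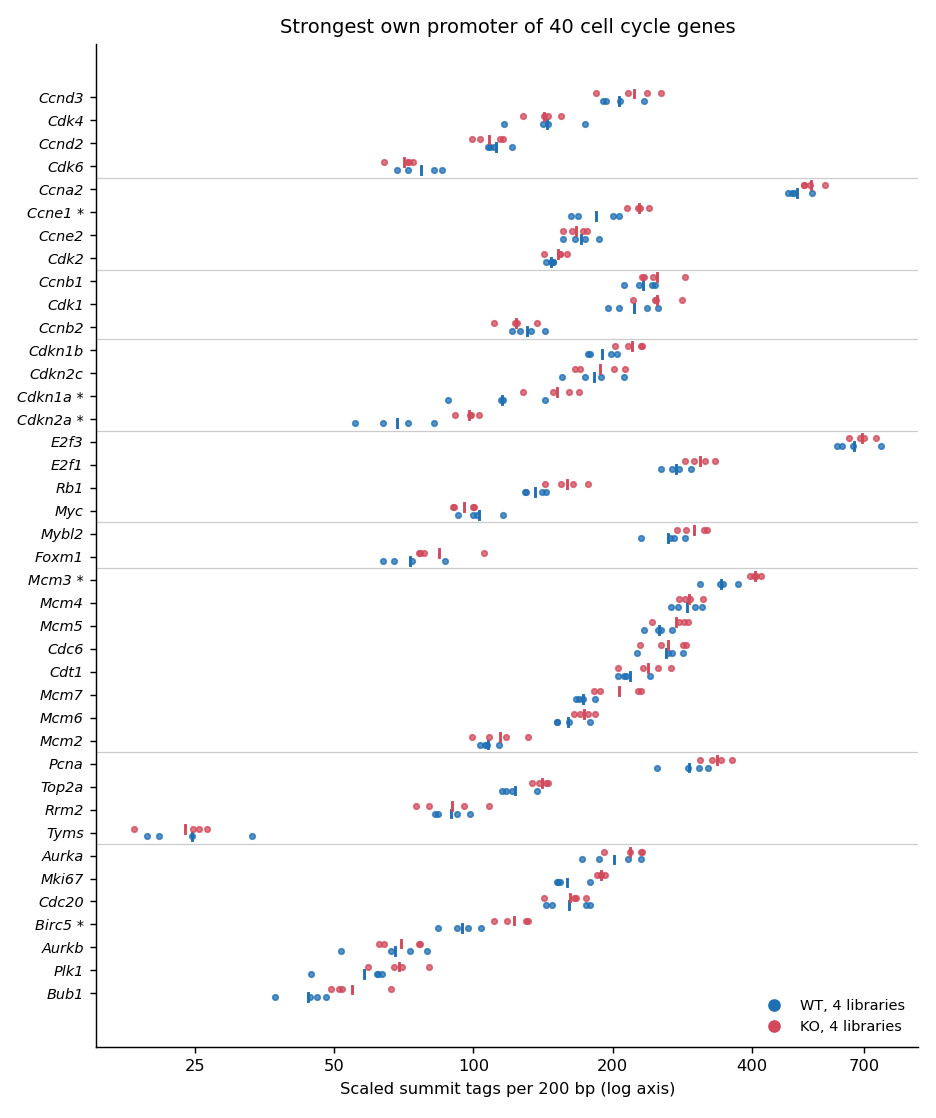
Scaled summit tags (horizontal log axis) at the strongest own promoter of the 40 member genes with such a region in all 8 libraries, grouped by function; each point is 1 library (blue WT, red KO), bars are means of 4, and asterisks mark promoters called higher in KO. Levels run from 24.2 at Tyms to 681 at E2f3, the red points lie mostly to the right of the blue ones, and 5 promoters carry an asterisk.

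The 2 exceptions were Ccnd1 and E2f2. Ccnd1 (cyclin D1, chr7:144929931-144939925) had 5 regions, all distal and all with a peak in 8 libraries, of which the closest lay 1804 bp from a TSS. The log2 difference (KO minus WT) at these 5 regions ranged from -0.16 to 0.23, and 0 were called. A promoter region of E2f2 (chr4:136172066-136172308) was listed in 2 KO libraries and 1 WT library and was not tested, but 5 distal regions of the same gene were listed in all 8 libraries. Cdkn1a, which encodes the kinase inhibitor p21, had its promoter region at an internal TSS (chr17:29093550-29093992), and no consensus region lay within 1 kb of its most upstream start.

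Slightly fewer member regions had a peak in KO than in WT, with means of 84.0% and 89.4%, beside 82.3% and 86.6% over all consensus regions. Of the 209 regions, 86 were promoters (58 of a member and 28 of a neighboring gene only) and 123 were distal, and 148 regions (70.8%) had a peak in all 8 libraries, beside 65.3% over all consensus regions. The KO libraries had a peak at 173, 184, 172 and 173 member regions and the WT libraries at 183, 196, 187 and 181. The counts of the 2 genotypes overlap only through KO replicate 1_3 (184), and the highest count was in WT replicate 1_3, the library with the longest list. As a share of all consensus regions the same libraries covered 79.9 to 85.1% in KO and 80.7 to 93.0% in WT.

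Regions listed in all 8 libraries, 69 promoters and 79 distal regions, were compared between genotypes in a limma fit over all 47499 such regions, with Benjamini-Hochberg adjustment and a threshold of 0.05. At promoters, 8 of 69 member regions (11.6%) were called higher in KO and 0 lower, beside 6.85% higher and 2.70% lower among all promoters. The median log2 difference of the member promoters was 0.12, beside 0.09 over all promoters, and 54 of the 69 estimates were above 0. With a median of 0.09, most promoters of the series were above 0 as well, and their exact share is not given here. At distal regions, 2 of 79 (2.53%) were called higher and 8 (10.1%) lower, beside 5.41% and 8.70% among all distal regions, and the median difference was 0.03, beside 0.01. The calls depend on how libraries are scaled. With scaling by background depth in place of the library median, 0 promoters and 2 distal regions, both lower, were called, and the median of the distal member regions was -0.02. Over all regions the share of calls that were higher was 45.3% with median scaling and 22.8% with background depth. Without WT replicate 1_3, 4 promoters were called higher, and without WT replicate 4, 14 were.

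**Figure D2:**
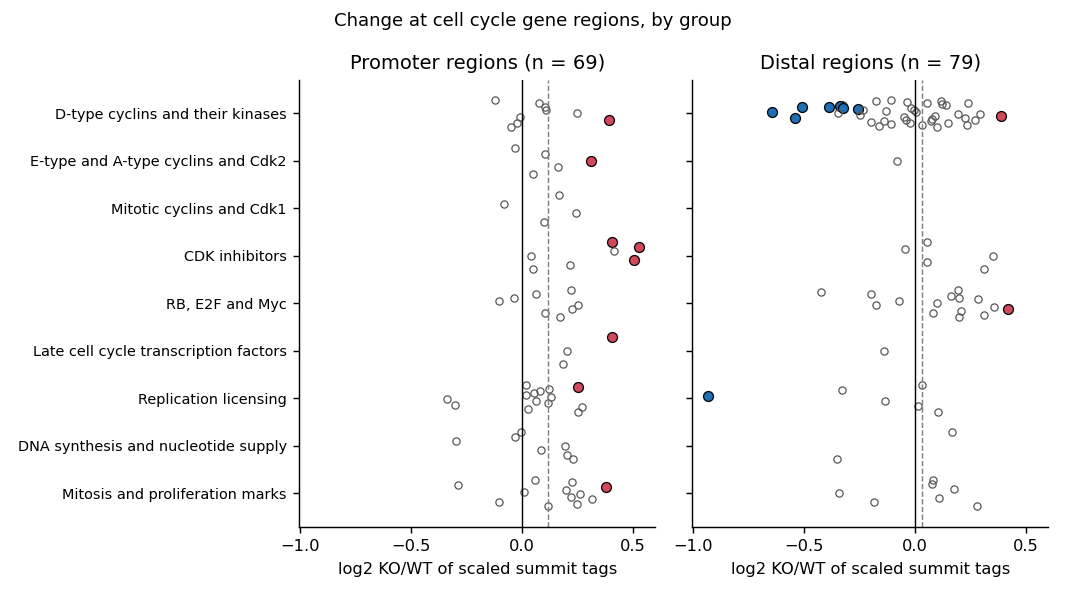
Log2 difference of scaled summit tags (KO/WT, horizontal axis) at the 69 promoter and 79 distal regions tested, by functional group; each circle is 1 region, filled circles are called (red higher, blue lower), the solid line is 0 and the dashed line the median of the panel. All 8 called promoters lie above 0, whereas 8 of 10 called distal regions lie below 0, 7 of them at D-type cyclins and their kinases.

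Among the CDK inhibitors, the strongest own promoter had an estimate above 0 at 4 of 4 genes, beside a median of 0.09 over all promoters, most of which were also above 0. It was called higher at 2 genes, beside 6.85% of all promoters called higher. With background depth scaling neither was called (Cdkn2a adjusted p = 0.109 and Cdkn1a adjusted p = 0.256, both by limma). At Cdkn2a, which encodes the inhibitor p16 and the p53 activator p19Arf, the upstream promoter (chr4:89294497-89295717) had 91.1, 98.5, 98.6 and 103 scaled tags in KO and 72.1, 82.4, 55.4 and 63.7 in WT. The groups did not overlap, with means of 97.7 ± 4.80 and 68.4 ± 11.5 (SD, n = 4), and the log2 difference was 0.53 ± 0.13 (SE, limma adjusted p = 0.00271). Its other promoter (chr4:89281974-89282482) was listed in 4 KO and 3 WT libraries and was not tested. Unscaled tags there were 49, 61, 34 and 39 in KO and 19, 18 and 14 in WT replicates 1_2, 1_3 and 4. The 2 products were not assigned to the 2 promoters here, so the call at the upstream promoter is not a result about p16. At the internal Cdkn1a promoter, KO libraries had 149, 128, 170 and 161 scaled tags and WT libraries 115, 88.3, 116 and 143. WT replicate 4 lay within the KO range, and the difference was 0.41 ± 0.11 on the log2 scale (limma adjusted p = 0.0107). Cdkn1b (p27) and Cdkn2c (p18) had own promoter differences of 0.22 and 0.04 and were not called.

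In the window of Cdkn2c the called region was the promoter of a neighbor, Faf1 (FAS-associated factor 1), 9463 bp from Cdkn2c (chr4:109676166-109677145). It had 146, 148, 146 and 145 scaled tags in KO and 111, 117, 85.6 and 102 in WT, with no overlap of the groups. The log2 difference of 0.51 ± 0.10 had the smallest adjusted p of the member regions (limma adjusted p = 0.000518). A similar case was the promoter of Tulp3, a gene of ciliary trafficking, 7096 bp from Foxm1 (chr6:128355656-128356125), with 161, 135, 125 and 152 scaled tags in KO and 120, 102, 100 and 109 in WT. These groups did not overlap (log2 difference 0.41 ± 0.11, limma adjusted p = 0.00589), whereas the promoter of Foxm1 itself differed by 0.20 and was not called.

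Among the cyclins and kinases of G1 and S phase, promoters of Cdk4 and Ccne1 were called higher in KO. Cdk4, the partner of the D-type cyclins, had 2 promoter regions listed in all 8 libraries. At the region over the TSS (chr10:127063083-127063964), KO libraries had 136, 128, 119 and 137 scaled tags and WT libraries 97.2, 87.6, 114 and 98.6. All KO values exceeded all WT values (log2 difference 0.39 ± 0.11, limma adjusted p = 0.00944), whereas the other region (chr10:127062491-127062881) had means of 142 in KO and 144 in WT and a difference of -0.01. At Ccne1, which encodes cyclin E1 (chr7:38107232-38108236), scaled tags were 240, 215, 229 and 227 in KO and 201, 163, 206 and 169 in WT. The groups were apart by a small margin, and the difference was 0.31 ± 0.09 (limma adjusted p = 0.0148). The promoters of Ccnd2, Ccnd3, Ccne2, Ccna2, Cdk2 and Cdk6 were not called, with log2 differences at the strongest own promoter from -0.12 at Cdk6 to 0.11 at Ccnd3. Another promoter region of Ccnd3 (chr17:47595488-47595914) differed by 0.25 and was not called. At the Ccnd2 promoter (chr6:127150901-127151226), KO libraries had 116, 99.5, 103 and 114 scaled tags and WT libraries 111, 108, 108 and 121. These values overlapped throughout (adjusted p = 0.806 by limma).

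Among mitotic and proliferation genes, estimates at the strongest own promoter were above 0 at 7 of 7 genes. Their median was 0.25, and over all 12 promoter regions tested in their windows it was 0.21, beside 0.09 over all promoters. Most promoters of the series were also above 0. Of the 7 strongest own promoters, 1 was called higher, beside 6.85% of all promoters. The called promoter was that of Birc5, which encodes survivin, a subunit of the chromosomal passenger complex and an inhibitor of apoptosis (chr11:117848945-117849446). Scaled tags at its promoter were 118, 111, 130 and 131 in KO and 104, 83.8, 92.0 and 97.5 in WT. The groups did not overlap (log2 difference 0.38 ± 0.11, limma adjusted p = 0.0143). A weaker promoter region just upstream (chr11:117848519-117848859) had an estimate of the opposite sign, -0.29, and was not called.

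The Mki67 promoter (chr7:135715597-135716864) had 189, 185, 189 and 193 scaled tags in KO and 178, 154, 151 and 153 in WT. The groups did not overlap, but the difference of 0.25 ± 0.09 did not pass the threshold (limma adjusted p = 0.0558). At the Cdk1 promoter (chr10:69352266-69353301), KO libraries had 282, 222, 249 and 247 scaled tags and WT libraries 251, 237, 195 and 207. These overlapped (log2 difference 0.17 ± 0.09, limma adjusted p = 0.224). The strongest own promoters of Aurka, Aurkb, Bub1, Plk1 and Cdc20 differed by 0.01 to 0.32 and were not called, nor were the mitotic cyclin genes Ccnb1 (0.10) and Ccnb2 (-0.08).

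At the licensing genes, the strongest own promoter had an estimate above 0 at 8 of 8 genes. The estimates ran from 0.02 to 0.25, beside a median of 0.09 over all promoters, most of which were also above 0. Only Mcm3 was called higher, beside 6.85% of all promoters (chr1:20820093-20820624, 407 ± 9.56 scaled tags in KO and 343 ± 26.4 in WT, SD, n = 4, limma adjusted p = 0.0203). Mcm3 was also the licensing promoter with the highest level. Among the genes of DNA synthesis and nucleotide supply, Pcna (0.20), Top2a (0.20), Rrm2 and Tyms were not called. Rb1, E2f1, E2f3 and Myc were not called either, with differences of -0.10 to 0.23. The Myc promoter region with most tags (chr15:61986968-61987390) had 100, 90.4, 90.7 and 100 scaled tags in KO and 102, 92.8, 116 and 99.8 in WT. The groups overlapped (log2 difference -0.10 ± 0.11, adjusted p = 0.599 by limma).

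Most of the distal calls lay in introns of Cdk6, the other kinase of the D-type cyclins. This gene spans 190 kb (chr5:3341485-3531008, plus strand) and had 33 consensus regions, of which 22 were listed in all 8 libraries, 1 at its promoter and 21 distal. Of the 21, 6 were called lower in KO and 0 higher, beside 8.70% lower and 5.41% higher among all distal regions, and 15 estimates were below 0. All 6 lay more than 100 kb into the gene, where 12 distal regions were tested and 11 had estimates below 0. The nearest TSS of these 6 regions belonged to Gm17590 or Gm42435, at 8005 to 19280 bp, and not to Cdk6. Which gene they act on was not tested. Nearer to the start, 0 of 9 distal regions were called and 4 had estimates below 0. The nearer regions had means of 18.4 to 87.1 scaled tags, beside 24.8 to 275 further in. The part of signal level in this contrast was not tested. The split at 100 kb was chosen after the values had been seen.

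**Figure D3:**
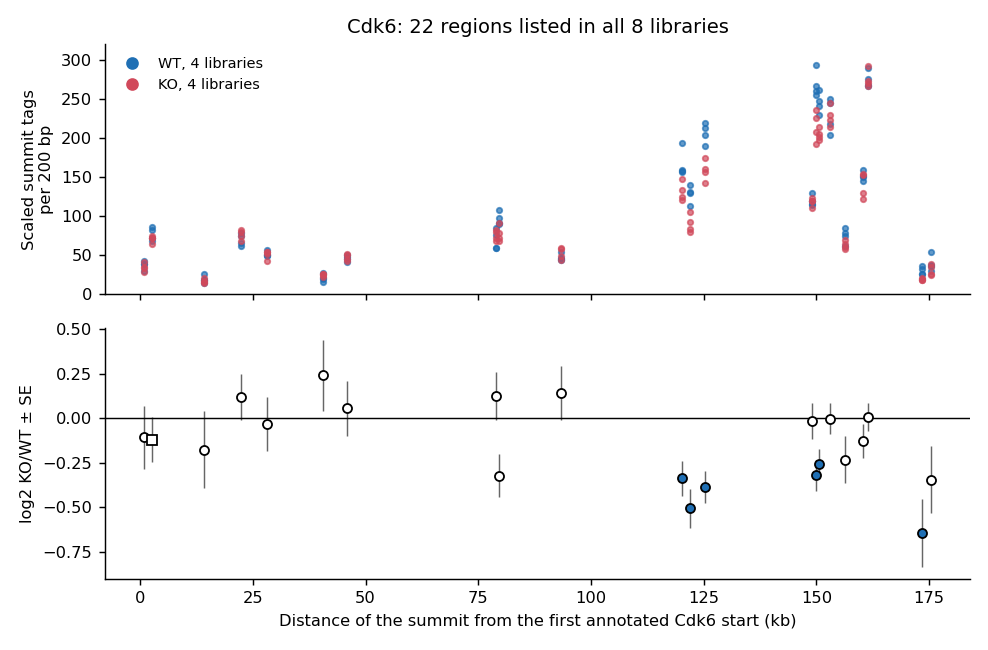
The 22 regions of Cdk6 listed in all 8 libraries, by distance of the summit from the first annotated start (kb, horizontal axis). The upper panel gives scaled summit tags, each point being 1 library (blue WT, red KO), and the lower panel the log2 difference (KO/WT) with its SE, filled where called and square for the promoter; the 6 filled symbols lie below 0, between 120 and 173 kb.

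The smallest adjusted p at Cdk6 was at chr5:3463187-3463702, with 93.1, 106, 84.0 and 80.1 scaled tags in KO and 131, 113, 130 and 140 in WT. The difference was -0.51 ± 0.11 (limma adjusted p = 0.00108). With background depth scaling this region was called (adjusted p = 0.0233 by limma), and the other 5 had adjusted p of 0.0579 to 0.337 by limma. At chr5:3466523-3466959, KO libraries had 161, 142, 156 and 174 scaled tags and WT libraries 190, 212, 204 and 219, a difference of -0.38 ± 0.09 (limma adjusted p = 0.00234). The third region of this intronic group, chr5:3461434-3461833, had 125, 148, 134 and 120 scaled tags in KO and 156, 158, 159 and 193 in WT (log2 difference -0.34 ± 0.10, limma adjusted p = 0.0163). In each of these regions all KO libraries lay below all WT libraries. Further into the gene, chr5:3491163-3491641 had 225, 208, 236 and 193 scaled tags in KO and 260, 255, 267 and 294 in WT, again apart (log2 difference -0.32 ± 0.09, limma adjusted p = 0.00709). The remaining called regions were a neighbor of this one (chr5:3491821-3492266, -0.26) and a weak region (chr5:3514705-3515332, -0.64). The strongest distal region of the gene, chr5:3502512-3503048, had 273, 266, 292 and 270 scaled tags in KO and 275, 267, 266 and 289 in WT, with a difference of 0.01.

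The windows of 201 bp around the summits of 2 called Cdk6 regions are shown (mm10, plus strand), the called region of smallest adjusted p (chr5:3463335-3463535) and the only called distal region with a DR1 match (chr5:3491967-3492167), the latter chosen after its values had been seen. Capitals mark the match.
Cdk6 intron, 3463335: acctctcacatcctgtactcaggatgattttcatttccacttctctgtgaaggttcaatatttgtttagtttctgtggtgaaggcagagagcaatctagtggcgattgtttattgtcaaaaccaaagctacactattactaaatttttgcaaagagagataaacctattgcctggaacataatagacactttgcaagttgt
Cdk6 intron, 3491967: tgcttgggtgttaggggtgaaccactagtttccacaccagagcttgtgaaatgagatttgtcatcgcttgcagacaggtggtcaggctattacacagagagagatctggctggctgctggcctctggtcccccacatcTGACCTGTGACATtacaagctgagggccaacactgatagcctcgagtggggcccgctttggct
The DR1 match starts 38 bases after the summit, reads on the minus strand and differs from the full pattern by up to 2 bases.

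The largest difference of all tested member regions was 7102 bp upstream of Cdc6, the loading factor of the MCM helicase. Cdc6 (chr11:98907801-98923940, plus strand) had 23.4, 20.7, 29.9 and 32.6 scaled tags at chr11:98900514-98901129 in KO and 31.4, 60.7, 66.4 and 49.0 in WT. WT replicate 1_2 lay within the KO range and the other WT libraries lay above it, with means of 26.7 ± 5.53 and 51.9 ± 15.4 (SD, n = 4). The log2 difference was -0.93 ± 0.20 (limma adjusted p = 0.000641), and it passed the threshold with background depth scaling as well (adjusted p = 0.000527 by limma). The promoter of Cdc6 had 264 scaled tags in KO and 261 in WT. The window at the summit (chr11:98900599-98900799, plus strand) is shown because of this difference, and it holds no match to the DR1, PU.1 or AP-1 patterns.
Cdc6 upstream: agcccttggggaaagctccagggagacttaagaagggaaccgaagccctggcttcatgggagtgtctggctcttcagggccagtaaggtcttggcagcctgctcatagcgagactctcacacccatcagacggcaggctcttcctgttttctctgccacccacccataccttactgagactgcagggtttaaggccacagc

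Called distal regions were also found in introns of E2f2 and Ccnd3. E2f2, an activating E2F, had 92.1, 102, 84.0 and 90.7 scaled tags at chr4:136174808-136175186 in KO and 75.9, 63.7, 66.4 and 69.3 in WT. The groups did not overlap (log2 difference 0.42 ± 0.12, limma adjusted p = 0.0154). In Ccnd3, which encodes cyclin D3, called regions went in both directions. At chr17:47541798-47542389, KO libraries had 37.3, 30.8, 40.0 and 39.7 scaled tags and WT libraries 59.5, 59.2, 46.2 and 50.2, without overlap (log2 difference -0.54 ± 0.16, limma adjusted p = 0.0186). At chr17:47523240-47523804 KO libraries averaged 116 scaled tags and WT libraries 89.1 (0.39 ± 0.12, limma adjusted p = 0.0208), and the groups overlapped. The strongest distal region of Ccnd3 (chr17:47507892-47508338) had 237, 206, 197 and 193 scaled tags in KO and 197, 161, 191 and 180 in WT, and that of Rb1 (chr14:73222374-73222991) had 212, 224, 190 and 205 in KO and 231, 179, 235 and 232 in WT. Neither was called, with differences of 0.19 and -0.07, and their groups overlapped.

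To give each gene a single value, tags were summed over its distal regions listed in all 8 libraries, and limma was fitted to these sums over 10493 protein-coding genes. Such a sum was available for 22 members, of which 2 were called higher in KO and 1 lower, beside 7.92% higher and 8.71% lower among all genes. E2f2 had summed scaled tags of 391, 358, 366 and 334 in KO and 285, 276, 295 and 327 in WT (log2 difference 0.29 ± 0.07, limma adjusted p = 0.00404), and 5 of its 5 distal estimates were above 0. Cdk6 had 2190, 2214, 2127 and 2028 in KO and 2319, 2334, 2316 and 2483 in WT (-0.14 ± 0.05, limma adjusted p = 0.0242). Ccnd3 had 838, 764, 801 and 756 in KO and 743, 699, 671 and 717 in WT (0.16 ± 0.06, limma adjusted p = 0.0477), a call kept in 5 of 18 alternatives and lost in 13, among them quantile normalization (limma adjusted p = 0.0923). The groups did not overlap at any of these 3 genes, and the shifts were 1.23-fold, 0.905-fold and 1.12-fold. With background depth scaling, 0 of the 22 were called.

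Peaks in all 4 libraries of 1 genotype and none of the other were found at 3 of the 209 regions, all distal: 2 in WT only (0.957%, beside 0.820% of all consensus regions) and 1 in KO only (0.478%, beside 0.285%). A missing peak means that the threshold of the peak caller was not reached, and no tag number is known for that library. The windows of 201 bp around their summits are shown (mm10, plus strand): Ccnd2 at chr6:127146599-127146799, Aurkb at chr11:69051989-69052189, and Cdt1 at chr8:122561269-122561469. Capitals mark a DR1 match, 8 bases after the summit of the Aurkb region.
Ccnd2 intron: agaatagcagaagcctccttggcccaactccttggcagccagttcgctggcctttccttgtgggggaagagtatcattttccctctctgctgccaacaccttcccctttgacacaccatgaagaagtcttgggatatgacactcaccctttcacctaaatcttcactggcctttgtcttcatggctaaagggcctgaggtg
Aurkb downstream: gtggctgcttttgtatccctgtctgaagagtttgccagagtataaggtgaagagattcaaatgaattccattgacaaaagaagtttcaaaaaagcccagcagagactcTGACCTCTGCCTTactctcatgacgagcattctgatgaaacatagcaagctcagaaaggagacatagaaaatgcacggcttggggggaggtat
Cdt1 upstream: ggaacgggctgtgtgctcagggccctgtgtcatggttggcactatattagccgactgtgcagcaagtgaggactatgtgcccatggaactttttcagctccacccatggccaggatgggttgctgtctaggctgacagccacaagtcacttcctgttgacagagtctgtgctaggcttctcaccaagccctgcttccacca

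The Ccnd2 region (chr6:127146536-127146828) lies in an intron of the cyclin D2 gene and had 71, 92, 92 and 58 tags in the WT libraries. In the KO libraries the closest peak lay 227 to 244 bp away, with 147 to 188 tags, and with the local background of that peak a summit of about 29 to 38 tags would have been enough to be listed. That neighboring region (chr6:127145918-127146319) was present in all 8 libraries, with means of 180 scaled tags in KO and 206 in WT, without overlap of the groups but below the threshold for a call (log2 difference -0.20, adjusted p = 0.127 by limma). The Aurkb region (chr11:69051994-69052277), 425 bp beyond the end of the gene of the Aurora B kinase, was weak, with 15, 15, 19 and 15 tags in WT, and by the same estimate 6 to 8 tags would have been enough in KO. The Cdt1 region (chr8:122561222-122561555), 6646 bp upstream of the licensing factor gene, had 40, 31, 29 and 31 tags in the KO libraries. In the WT libraries the closest peak was 1871 to 3218 bp away, and 14 to 34 tags would have been needed with its background, which reaches into the range measured in KO.

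**Figure D4:**
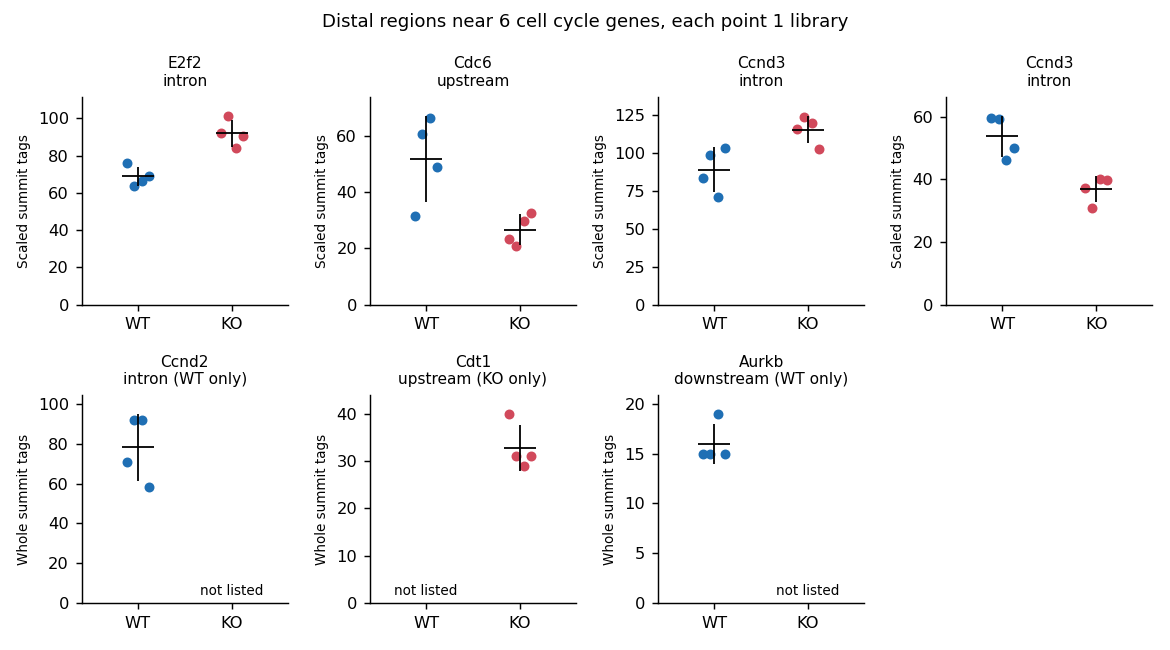
Summit tags by library (vertical axis, scaled in the upper row and unscaled in the lower row) at called distal regions of E2f2, Cdc6 and Ccnd3 and at the 3 regions with peaks in 1 genotype only; points are libraries (blue WT, red KO), with the mean and SD of 4. The Cdc6 region shows 1 WT library at 31.4 within the KO range and the others at 49.0 to 66.4, and the lower row has values for 1 genotype each.

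Across all 148 tested member regions, 10 were called higher and 8 lower, beside 5.81% higher and 7.03% lower of all tested regions. These 18 lay in the windows of 12 genes, and 30 members had no called region. Absolute log2 differences of the called regions ranged from 0.25 to 0.93. The groups did not overlap at 15 of the 18, and at 26 of all 148 (17.6%, beside 16.2% of all tested regions). Of the 12 genes, Ccnd3 alone had called regions in both directions.

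A further list of 56 cell cycle genes outside the members, among them factors of origin firing, spindle assembly and condensation, gave counts of the same form. Of 82 promoters in their windows, 12 (14.6%) were called higher and 0 lower, beside 6.85% and 2.70% of all promoters, with a median difference of 0.13. These counts are from median scaling, and those with background depth scaling are not given for this list. Background depth scaling lowered the promoters called higher from 908 to 65 over the series and from 8 to 0 among members. Of 59 distal regions, 1 (1.69%) was called higher and 7 (11.9%) lower, beside 5.41% and 8.70% of all distal regions, with a median of -0.04. Promoters called higher included those of Fzr1, a coactivator of the anaphase-promoting complex (0.41), Cenpe, a kinetochore motor (0.32), Uhrf1, which maintains DNA methylation (0.29), and Mad2l1, a spindle checkpoint protein (0.23). The 12 also count promoters of neighboring genes, such as Ttc28 in the window of Chek2 (0.67). Distal regions called lower included 2 regions each in the windows of Anln (-0.56 and -0.52) and Tpx2 (-0.51 and -0.40), which encode proteins of cytokinesis and spindle assembly. The nearest TSS of these regions belonged to Gm48646 in the Anln window and to Mylk2 in the Tpx2 window. Regions with peaks in 1 genotype only numbered 0, and distal sums were called lower for 3 of 25 genes and higher for 0, beside 8.71% and 7.92% of all genes.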

How the data were processed

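Sample titles gave the groups and the replicate names. Per the study's methods, the authors used cutadapt for trimming and Bowtie2 for alignment to mm10, discarded duplicates, kept high-quality pairs with SAMtools and called peaks per library with MACS3 at a q-value of 0.05 after shifting and extending reads to 200 bp, so that tags count transposase cuts. The deposited lists give for each peak a fold (ratio of summit pileup to local background), its −log10 p-value and −log10 q-value, and the summit. A deeper library lists weaker peaks, and the lists hold no read counts, so the edgeR test of the study was not fitted.

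Whole tags were worked back from the deposited fold and −log10 p-value for 100% of peaks (relative error of the p-value under 1e-05). Log2(tags + 0.5) was shifted to a common median per library and fitted with limma 3.58.1 (R 4.3.3; trended prior variance; two-sided; Benjamini-Hochberg threshold 0.05) over all regions with a peak in all 8 libraries. Tag recovery and the fit were tested on simulated data first. TSSs were those of protein-coding and long noncoding genes. Intervals of counting error were not given because tags enter the fit directly. Peak statistics are made within a list, so tags set side by side across lists are an approximation, and depth is known only as background tags. Motifs were matched on both strands with pysam 0.24.0 and pandas 2.3.3. Promoter sequences of Ccnd2, Ccne2, Ccna2, Foxm1, Mcm4, Aurkb, Ccnd1, Rb1 and Myc were not used here.

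The members, gene lists and tests were chosen with earlier results of these data known. Values in every library are given for the 14 called regions of smallest adjusted p, regions of 1 genotype only, genes called on distal sums, the promoters of Mki67, Cdk1, Ccnd2, Myc, Cdkn1a and Cdkn2a, the strongest distal region of the 3 members with most distal regions, and members without a promoter region in all libraries (given by counts). The other regions are given by range and count, or by name where they belong to the same gene. Alternatives covered scaling, pseudocount, peak threshold, list length, overlap, windows, replicate handling and leaving out each library.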

Additional observations from a re-analysis of the deposited data

Results flagged for a closer look

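In 65 sets of 4 libraries, a single library stood far from the other 3 by Dixon's criterion in 6, and chance gives about 1 in 20. In KO replicate 1_3, 184 member regions had a peak, beside 172 to 173 in the other KO libraries. At the Cdk6 intron region chr5:3461434-3461833, WT replicate 4 had 193 scaled tags, beside 156 to 159 in the other WT libraries, and WT replicate 4 also had the highest distal sum of Cdk6 in WT, 2483 scaled tags beside 2316 to 2334. At the Mki67 promoter, WT replicate 1_2 had 178 scaled tags, beside 151 to 154. At the strongest distal region of Rb1, WT replicate 1_3 had 179 scaled tags, beside 231 to 235. At the Aurkb region listed in WT only, WT replicate 3 had 19 tags, beside 15 in each of the others. The causes were not tested.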

How the results depend on the processing

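No named value changed direction in 19 alternatives: of 396 values, 326 stayed past the threshold and 70 did not. The named values had been chosen because they passed the threshold in the main fit. Gene windows of 2 kb and promoters within 500 bp leave the region fit unchanged (2759 regions higher and 3337 lower, as in the main fit). Region values therefore stayed by construction in these settings. An overlap of at least 100 bp gave the same counts. Scaling by background depth had the widest effect. With it, 0 promoters and 0 distal regions were called higher, 2 distal regions (Cdc6 and Cdk6) lower and 0 genes on distal sums, and 2 of 21 named values stayed past the threshold. Regions with peaks in 1 genotype only numbered 5 with peaks of −log10 q of at least 5, 9 when 1 library could depart and 6 when replicates 1_2 and 1_3 counted as 1. Leaving out 1 library gave 4 to 14 promoters higher (4 without WT 1_3, 14 without WT 4), 0 lower, 1 to 3 distal regions higher (1 without KO 1_3, KO 2 or WT 3), 5 to 9 lower (5 without WT 1_2 or WT 4), 1 to 3 genes on distal sums (E2f2 only without KO 2 or KO 3) and 3 to 5 regions of 1 genotype only (5 without KO 3 or WT 1_2). Ccnd3 lost its call on distal sums in 13 of 18 alternatives. Distal sums were not run for regions in at least 3 libraries of each genotype, where values are missing. Other causes were not tested.

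Replicate numbers 1_2, 1_3 and 3 occur in both genotypes. Deviations from the group means of same-numbered libraries correlated at 0.0555, 0.116 and 0.0368 across regions, which are not independent, beside -0.0673 to 0.0322 for other pairs, so each library correlated best with its own number, a hint from the data and not from the design. The replicate block called 13 promoters higher, 3 distal regions higher and 6 lower, and on distal sums Ccnd3 and E2f2.

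Read totals and tags below the list threshold are not known, which limits the regions of 1 genotype.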
